A study of Mus musculus with 12 samples.

Results

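The genes described here are 10 cytokine genes of mouse peritoneal macrophages: Osm, Lif, Il6, Il1a, Il1b, Il1rn, Tnf, Il10, Il12b and Tgfb1. They were chosen by gene symbol with earlier results of these data known. The value that brought the set up was the change of Osm in cells labelled KO with R300 against blank, and for all 10 genes that contrast is therefore given as a description with no p-value. All 10 were found among the 34928 gene symbols of the count table, and all 10 were among the 16546 genes with enough counts to be tested.

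The 12 libraries of peritoneal macrophage poly(A) RNA form 4 groups of 3 and come from 8-week-old male mice given 3% Brewer thioglycolate into the peritoneum 3 days before harvest. Thioglycolate is a sterile irritant that draws monocytes into the cavity. Cells called WT carry the floxed allele without deletion (Ern1fl/fl) and cells called KO are labelled Mac-Ern1KO, a loss of Ern1 in macrophages whose Cre driver is not named in the labels. Ern1 encodes IRE1α, a sensor of stress in the endoplasmic reticulum. In the R300 groups, cells of either genotype spent 2 h with platelets opsonised by R300, an antibody to the platelet receptor CD42, which is used to model immune thrombocytopenia. The blank groups carry the treatment label Con. Whether blank cells received uncoated platelets or the same time in culture is not given in the sources used here, so antibody, platelets and culture cannot be told apart in any R300 difference below. The labels call the 3 libraries of a group biological replicates and do not tie them to single mice, so p-values cover the spread between these libraries only.

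Oncostatin M (Osm), leukaemia inhibitory factor (Lif) and interleukin 6 (Il6) belong to the IL-6 family, whose members signal through the shared receptor chain gp130 to JAK kinases and STAT3. Interleukin 1α and 1β (Il1a, Il1b) act on the IL-1 receptor, which the IL-1 receptor antagonist (Il1rn) occupies without signalling, and TNF (Tnf) acts on its own pair of receptors. Macrophages make most of these cytokines within hours of stimulation from short-lived mRNAs, while IL-10 (Il10) and TGF-β1 (Tgfb1) are known for restraining inflammation and the IL-12 p40 subunit (Il12b) for driving T helper responses.

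Libraries held 21765600 to 44273700 counts (rounded to 6 digits). Although the labels give male mice, Xist, a transcript of female cells, stood at 143 to 590 CPM (read counts scaled to library size) in 8 libraries and at 0 to 0.0742 CPM in the rest, which were blank 3 of both genotypes, WT R300 2 and KO R300 3. Within the R300 groups, WT 1 and 3 were nearly alike (median chi-square per gene 1.37) and so were KO 1 and 2 (1.53), whereas other replicate pairs gave 6.15 to 10.3. Both values lie above pure counting noise, and the libraries were kept apart, but the R300 groups may hold fewer than 3 independent samples. Ern1 was not lower in KO (116 to 155 CPM in KO blank against 94.1 to 117 in WT blank, 174 to 235 in KO R300 against 138 to 205 in WT R300), and counts over a whole gene do not check the deletion of an exon. Macrophage markers were present in every library: Adgre1 (F4/80) stood at 566 to 706 CPM, Csf1r at 1496 to 2270 CPM and Lyz2 at 6058 to 13522 CPM. The summed level differed by genotype, however, and Lyz2 makes up most of the sum. The sum of 8 macrophage markers was 16745.6 to 17868.6 CPM in WT blank and 15985.5 to 17295.9 in WT R300. It was 9954.68 to 11485.8 CPM in KO blank and 10947.8 to 11319.3 in KO R300, so every KO library lay below every WT library in this sum. Since the sum follows mainly Lyz2, it does not show a lower level of macrophage markers in general. The cause was not tested.

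Promoter sequences are shown side by side for the 4 members with the largest fitted WT differences after Osm. The fitted WT values of Lif, Il6 and Il1b were higher with R300 and that of Tnf was lower. None of the 4 passed the edgeR test in WT with all 12 libraries. RefSeq sequences on GRCm38.p6 (250 bases before to 50 after the start, 5′ to 3′ on the gene's strand) were at hand for 8 of the 10 members; Osm and Il10 had no entry. Lif lies at chr11:4257318-4257617 (plus strand), Il6 at chr5:30012864-30013163 (plus), Il1b at chr2:129371090-129371389 (minus) and Tnf at chr17:35201958-35202257 (minus). Capitals mark every match to the motifs named in the next paragraph.
Lif: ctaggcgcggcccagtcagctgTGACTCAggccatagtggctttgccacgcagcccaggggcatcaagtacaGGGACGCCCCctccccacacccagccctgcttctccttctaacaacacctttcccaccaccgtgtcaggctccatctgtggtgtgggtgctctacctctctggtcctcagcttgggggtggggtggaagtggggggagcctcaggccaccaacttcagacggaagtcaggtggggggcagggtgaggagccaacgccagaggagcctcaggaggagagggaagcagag
Il6: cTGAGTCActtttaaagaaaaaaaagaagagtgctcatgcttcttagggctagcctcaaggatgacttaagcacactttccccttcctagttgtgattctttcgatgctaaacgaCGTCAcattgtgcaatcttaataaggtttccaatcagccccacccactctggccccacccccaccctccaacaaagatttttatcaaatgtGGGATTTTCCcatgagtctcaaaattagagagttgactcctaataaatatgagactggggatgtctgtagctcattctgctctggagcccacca
Il1b: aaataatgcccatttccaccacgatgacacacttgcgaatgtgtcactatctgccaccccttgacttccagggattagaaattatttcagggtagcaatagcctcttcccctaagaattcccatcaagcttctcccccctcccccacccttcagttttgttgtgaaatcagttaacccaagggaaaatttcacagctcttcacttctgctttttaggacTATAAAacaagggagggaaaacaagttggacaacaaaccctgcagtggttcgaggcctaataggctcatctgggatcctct
Tnf: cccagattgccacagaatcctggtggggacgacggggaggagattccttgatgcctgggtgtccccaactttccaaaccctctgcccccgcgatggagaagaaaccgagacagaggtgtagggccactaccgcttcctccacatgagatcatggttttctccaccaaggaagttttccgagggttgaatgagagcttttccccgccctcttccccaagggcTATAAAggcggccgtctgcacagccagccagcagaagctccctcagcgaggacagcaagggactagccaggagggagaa

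The motifs searched, on both strands, were the cAMP response element TGACGTCA, its core TGACG (which every full element also contains), the AP-1 site TGANTCA, the STAT site TTCNNNGAA, the NR4A site AAAGGTCA, the NF-kappaB site and the TATA box TATAAA. Positions give the first base of a match, with the RefSeq start as 1 and the base before it as -1. The Il6 window held an AP-1 match at -249, a TGACG match at -135 and an NF-kappaB match at -44. The Lif window held AP-1 at -228 and NF-kappaB at -178, and both Il1b and Tnf held a TATA box, at -31 and -29. Of the windows not printed, Il1a held AP-1 at -12 and a TATA box at -32, Il1rn AP-1 at -141 in one of its 3 windows and a TATA match, on the opposite strand, at 15 in another, Tgfb1 NF-kappaB at -140, and Il12b none of them. No member window held the full cAMP element, the STAT site or the NR4A site. Of all 32851 promoter windows of this length, 1.79% held TGACGTCA, 20.8% TGACG, 7.81% TGANTCA, 8.3% TTCNNNGAA, 1.51% AAAGGTCA, 8.46% the NF-kappaB site and 13.6% TATAAA. These matches describe letters in short windows and say nothing of binding.

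Osm is the IL-6 family member whose change in KO brought the set up. Osm lies on chromosome 11 of GRCm38 at 4236420 to 4241026, plus strand, and Lif follows it at 4257557 to 4272514 on the same strand. Osm stood at 12.1, 27.5 and 25.7 TMM-normalised CPM in WT blank 1 to 3 and at 229, 81.9 and 211 CPM in WT R300 1 to 3. In KO it stood at 14.7, 36.9 and 24.9 CPM in blank and at 381, 336 and 77.1 CPM in R300. Every R300 library was above every blank library of either genotype, and within each R300 group the lowest was the library without Xist. The mean in WT went from 21.7 ± 8.43 to 174 ± 80.1 CPM (SD, n = 3), a 7.98-fold difference (log2 3.00, SE 0.63) that did not pass edgeR's quasi-likelihood test after Benjamini-Hochberg adjustment over all genes (adjusted p = 0.0790). It passed without WT R300 2 (log2 3.33, adjusted p = 0.0405) or without KO R300 3 (2.99, 0.0214), and with DESeq2 (adjusted p = 1.67e-05), over a range of 1.67e-05 to 0.399 for all 23 alternatives. In KO the mean went from 25.5 ± 11.1 to 265 ± 164 CPM, 10.4-fold (log2 3.38, SE 0.63).

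Lif, a gp130 cytokine that also acts on stem cells and in wasting, was far less abundant. It stood at 1.43, 6.12 and 1.26 CPM in WT blank, 17.8, 5.95 and 15.7 in WT R300, 1.53, 17.9 and 1.201 in KO blank and 17.7, 16.96 and 6.33 in KO R300. Blank and R300 overlapped in both genotypes: the blank 2 library of each genotype lay at or above the R300 library without Xist, and KO blank 2 lay above all 3 KO R300 libraries. The difference was 4.38-fold in WT (log2 2.13, SE 1.01, adjusted p = 0.586), and the description for KO was 1.98-fold (log2 0.98, SE 0.96). Without KO blank 2 the KO value for Lif was log2 3.32.

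Il6 lies on chromosome 5 at 30013114 to 30019981, plus strand. It stood at 5.23, 6.72 and 1.30 CPM in WT blank and 25.4, 4.02 and 27.9 in WT R300, and at 10.7, 11.7 and 0.983 CPM in KO blank and 55.1, 54.8 and 4.16 in KO R300. The libraries with Xist and those without formed separate levels in every group, so that the R300 library without Xist was below 2 of the 3 blank libraries of its own genotype. The pooled WT difference was 4.31-fold (log2 2.11, SE 1.08, adjusted p = 0.648), and the KO one was 4.87-fold (log2 2.28, SE 1.07). Among libraries with Xist, Il6 was 4.46-fold higher with R300 in WT and 4.90-fold in KO (2 libraries against 2), and among those without Xist 3.09-fold and 4.24-fold (1 against 1, no test). With a batch term that separates libraries by Xist, a setting chosen with earlier results known, the WT difference passed (log2 2.05, adjusted p = 0.00317).

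**Figure D1:**
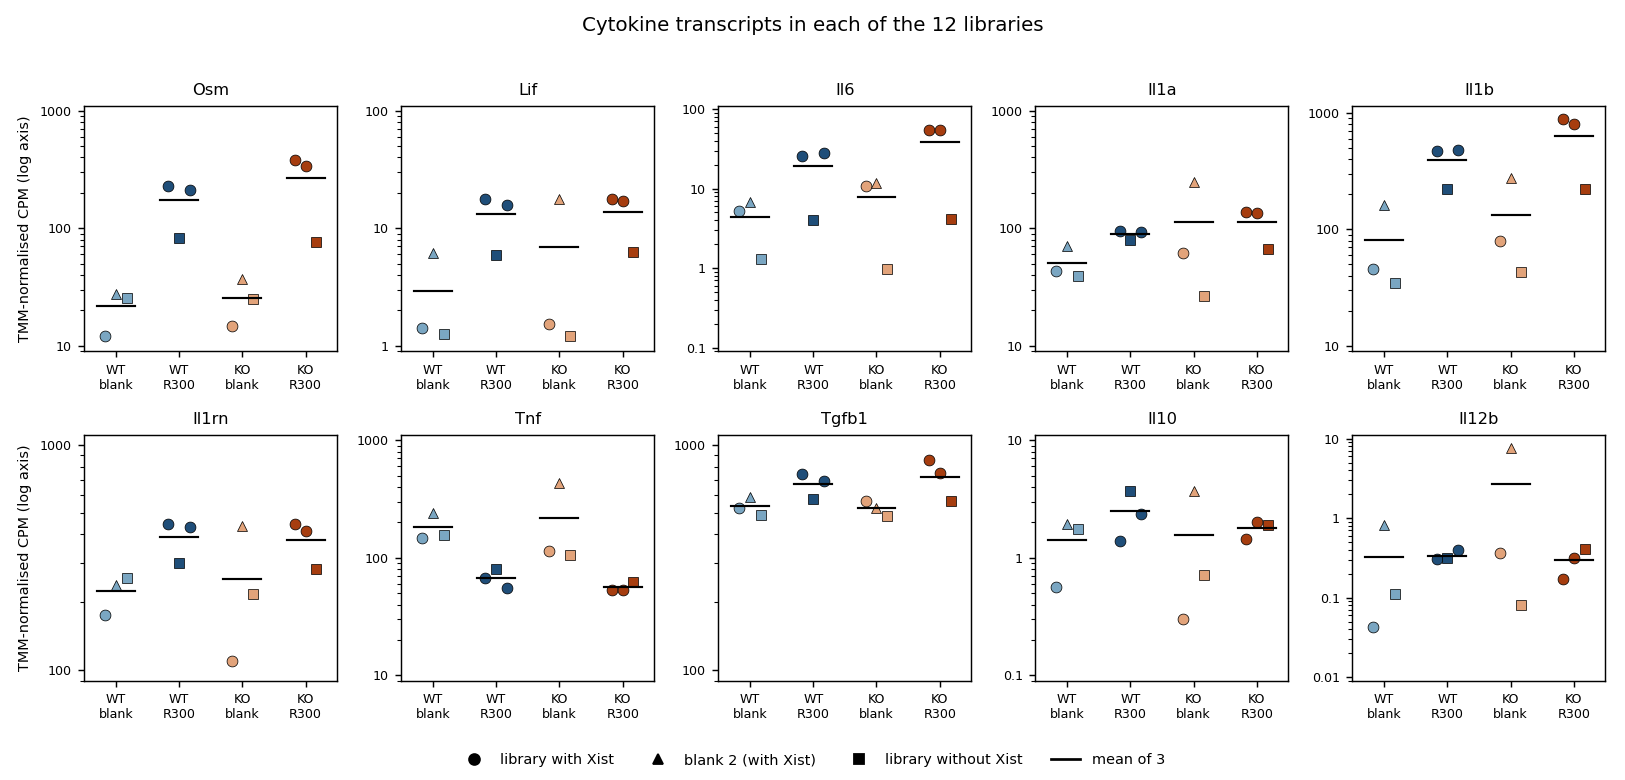
Level of each of the 10 cytokine transcripts in the 12 libraries, 1 panel per gene, with TMM-normalised CPM on a log axis and the 4 groups along the x axis. Circles are libraries with Xist, triangles the blank 2 libraries, squares the libraries without Xist and bars the mean of 3. Osm in R300 (77.1 to 381 CPM) lies above all blank libraries (12.1 to 36.9 CPM), Tnf in R300 (53.5 to 80.2 CPM) below all of them (106 to 434 CPM), and for Il12b a single library, KO blank 2, stands at 7.65 CPM.

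In the IL-1 family, no gene passed in WT, and the fitted WT values were 4.81-fold for Il1b, 1.74-fold for Il1a and 1.75-fold for Il1rn. Il1a and Il1b lie next to each other on the minus strand of chromosome 2 (129299610 to 129309972 and 129364570 to 129371139), whereas Il1rn lies far off on the same chromosome at 24336853 to 24351494. Il1b stood at 46.0, 163 and 34.9 CPM in WT blank and 472, 221 and 481 in WT R300, and at 79.5, 276 and 43.2 CPM in KO blank and 890, 800 and 224 in KO R300. In WT all 3 R300 libraries were above all 3 blank ones, and in KO the R300 library without Xist was below KO blank 2. Il1b was 4.81-fold higher in WT R300 (log2 2.27, SE 0.80, adjusted p = 0.390), and the KO value was 4.79-fold (log2 2.26, SE 0.80). Within libraries without Xist the ratio was 6.32 in WT and 5.18 in KO, and within those with Xist 4.57 and 4.75.

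Il1a, an alarmin that is active without processing by caspase 1, stood at 43.3, 70.9 and 39.1 CPM in WT blank and at 94.8, 79.7 and 93.2 CPM in WT R300. The WT groups did not overlap, yet the difference of 1.74-fold (log2 0.80, SE 0.63) had an adjusted p of 0.831. In KO, Il1a was highest in a blank library: 62.0, 248 and 26.7 CPM in blank against 139, 136 and 66.6 CPM in R300 (log2 0.02, SE 0.62), and without KO blank 2 the value was log2 1.36. The transcript Gm14023 on the opposite strand shares 11.2% of the exonic bases of Il1a, and Il1bos 1.31% of those of Il1b. Since the counting was not stated to use strand, reads from these stretches cannot be assigned to one of the partners. The tested neighbour Gm14023 had log2 values of 0.66 in WT (adjusted p = 0.832) and 0.27 in KO (adjusted p = 0.975).

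Il1rn, the natural antagonist of both IL-1 cytokines, was abundant before treatment. It stood at 176, 239 and 258 CPM in WT blank, 446, 298 and 431 in WT R300, 110, 434.5 and 218 in KO blank and 444, 413 and 281 in KO R300. The WT groups did not overlap (1.75-fold, log2 0.80, SE 0.40, adjusted p = 0.630), while KO blank 2 lay among the KO R300 libraries (1.49-fold, log2 0.58, SE 0.40). The agonist and its antagonist thus differed in the size of their change: 4.81-fold for Il1b against 1.75-fold for Il1rn in WT, a contrast between genes that was not tested.

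Tnf was the one member lower with R300 in both genotypes without overlap. It lies on the minus strand of chromosome 17 at 35199381 to 35202007 and encodes the acute inflammatory cytokine that macrophages shed from their surface. Tnf stood at 148, 239 and 157 CPM in WT blank and 67.2, 80.2 and 55.7 in WT R300, and at 113, 434 and 106 CPM in KO blank and 53.7, 53.5 and 62.1 in KO R300. All 6 R300 libraries were below all 6 blank libraries, and the libraries without Xist held the highest Tnf of their R300 groups, where they held the lowest Osm and Il6. The WT level was 0.373 of blank (log2 -1.42, SE 0.46, adjusted p = 0.333) and the KO level 0.259 of blank (log2 -1.95, SE 0.47). The size in KO rested on KO blank 2: without it the log2 value was -0.96. The WT difference passed when KO blank 2 was left out of the fit (log2 -1.42, adjusted p = 0.00950), and when both blank 2 libraries were left out (log2 -1.17, adjusted p = 0.0125). Over all 23 alternatives its adjusted p ran from 0.000347 to 0.999.

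Tgfb1 was the steadiest member. It lies on chromosome 7 at 25687002 to 25705077, plus strand, and stood at 525, 587 and 489 CPM in WT blank, 741, 575 and 692 in WT R300, 564, 525 and 485 in KO blank and 851, 746 and 564 in KO R300. WT R300 2 fell among the WT blank libraries, and KO R300 3 lay within 1 CPM of the highest KO blank library, so that the KO groups touched without overlapping. The WT difference was 1.25-fold (log2 0.33, SE 0.16, adjusted p = 0.605), and the KO value was 1.37-fold (log2 0.46, SE 0.16).

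Il10 and Il12b were near the limit of what these libraries resolve. Il10, on chromosome 1 at 131019845 to 131024974, had 13, 74 and 47 reads in WT blank, 49, 107 and 78 in WT R300, 10, 161 and 26 in KO blank and 42, 57 and 60 in KO R300, or 0.299 to 3.72 CPM over all 12 libraries. The groups overlapped in both genotypes, with log2 values of 0.79 in WT (SE 0.76, adjusted p = 0.873) and 0.17 in KO (SE 0.76). Il12b, on chromosome 11 at 44400063 to 44414033, had 1, 31 and 3 reads in WT blank, 11, 9 and 13 in WT R300, 12, 331 and 3 in KO blank and 5, 9 and 13 in KO R300. KO blank 2, at 7.65 CPM, stood apart from the other 11 libraries, which held 0.0433 to 0.807 CPM. The fitted KO value for Il12b of log2 -3.15 (SE 1.34) became 0.46 without KO blank 2, and the WT value was -0.04 (SE 1.36, adjusted p = 0.998). No direction can be read for Il12b at this depth.

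Over the 10 members, 8 values were positive and 2 negative in WT, with a median log2 of 0.80 against 0.00 for all genes tested. No member passed in WT by edgeR (3 had an unadjusted p under 0.05, as had 1442 of the 16546 genes, and DESeq2 called 1, Osm), where 0.55% of all genes passed as higher and 0.0725% as lower. The WT groups did not overlap for 4 members in the upward direction (Osm, Il1a, Il1b and Il1rn) and for 1 downward (Tnf), where 6.74% and 6.09% of all genes had this property. In KO, 8 values were positive and 2 negative, with a median of 0.52. The one member called there was Osm, beside 0.695% of genes called as higher and 0.139% as lower, and nothing is read from that count, since Osm was selected on it. The KO groups did not overlap for Osm and Tgfb1 upward and for Tnf downward, beside 6.64% and 5.68% of all genes. With 3 libraries against 3, no exact two-sided permutation p can go below 0.1 for a single gene. Bulk counts cannot tell a change in the number of cells that make a cytokine from a change in the mRNA each cell holds.

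**Figure D2:**
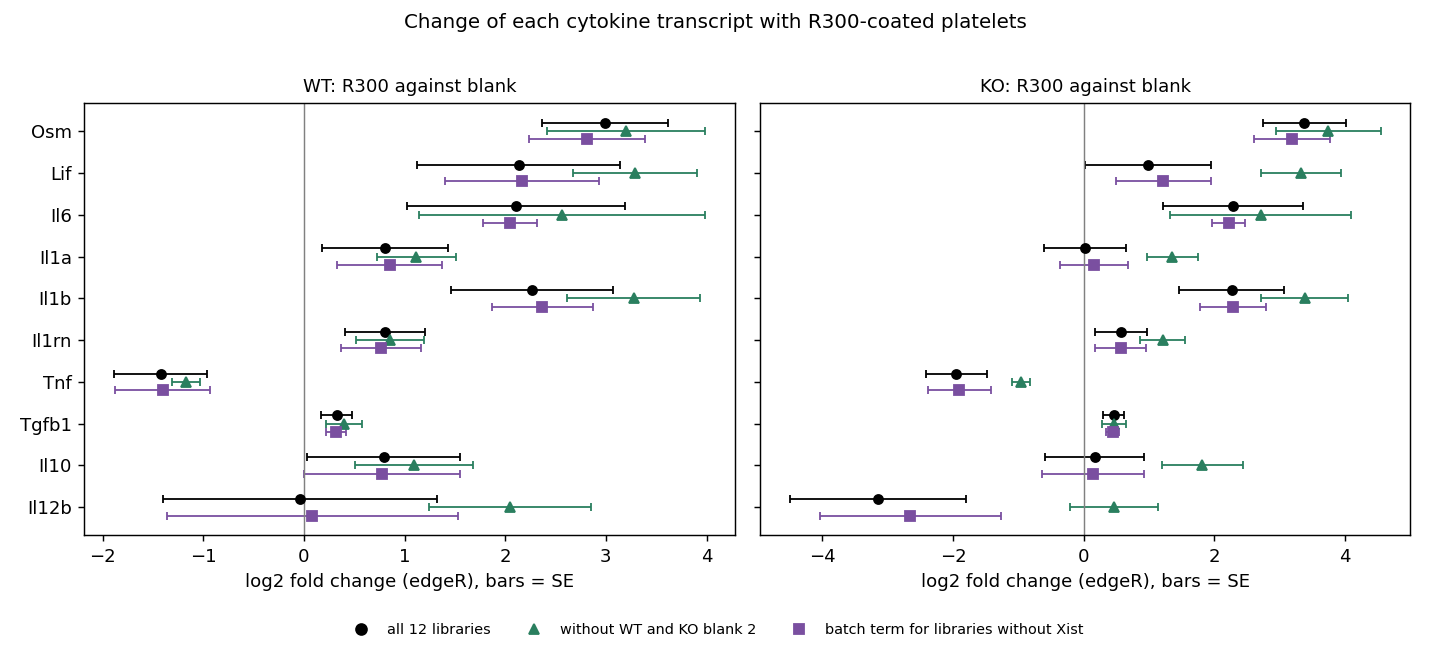
log2 fold change of each cytokine with R300 against blank in WT (left) and KO (right), with the standard error of the edgeR fit as bars. Black circles use all 12 libraries, green triangles leave out both blank 2 libraries, and purple squares add a term for presence of Xist. Osm stays between 2.82 and 3.74 in the 6 values drawn, whereas Il12b in KO goes from -3.15 to 0.46.

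No member passed a test between the genotypes. In blank cells, KO against WT gave 0 called genes of 16546 with edgeR (0%; 181 at an unadjusted p under 0.05, and 2 with DESeq2), and no member's libraries separated, beside 3.7% of all genes. The Osm difference there was log2 0.23 (SE 0.59, adjusted p = 1.00). The member with an unadjusted p under 0.05 was Il12b (log2 2.95, SE 1.32, adjusted p = 1.00), whose value came from KO blank 2. In R300 cells, KO against WT likewise gave 0 called genes (0%; 324 unadjusted, none of them a member, and 12 with DESeq2), and no member separated, beside 7.91% of all genes. Osm was 1.52-fold its WT level in KO R300 (log2 0.61, SE 0.58), Il6 1.99-fold (log2 0.99, SE 1.03) and Il1b 1.63-fold (log2 0.70, SE 0.77), each with an adjusted p of 1.00. The difference between the 2 R300 responses, KO minus WT, was log2 0.38 for Osm (SE 0.82), 0.18 for Il6 (SE 1.47), -0.01 for Il1b (SE 1.08) and -0.53 for Tnf (SE 0.64), with an adjusted p of 1.00 for each. edgeR called 0 genes for this interaction (0%; 95 unadjusted, no member among them), and so did DESeq2. The comparisons in this paragraph use KO libraries of the contrast that chose the set. Their Osm values are therefore not independent of that choice.

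The libraries with and without Xist gave different sizes for the same gene. Osm with R300 was 11.1-fold its blank level among WT libraries with Xist and 3.19-fold among those without, and 13.9-fold and 3.10-fold in KO (2 against 2 and 1 against 1 library, no test). In R300 cells alone, the libraries with Xist exceeded the one without by 2.68-fold for Osm, 6.64-fold for Il6 and 2.16-fold for Il1b in WT, and by 4.65-fold, 13.2-fold and 3.78-fold in KO. Tnf ran the other way by a smaller amount, at 0.767 in WT and 0.863 in KO. Libraries without Xist are 1 per group, and what else sets them apart was not tested. With a batch term for them, Osm, Il1b and Il6 passed in WT (Osm log2 2.82, adjusted p = 0.0360; Il1b 2.37, 0.0428), where 347 of the genes tested were called against 103 without the term.

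The blank 2 libraries held more of several inflammatory transcripts than the other blanks of their genotype. Against the mean of blank 1 and 3, KO blank 2 was 34.7-fold higher for Il12b, 13.1-fold for Lif, 7.37-fold for Il10, 5.58-fold for Il1a, 4.51-fold for Il1b and 3.95-fold for Tnf, but 1.86-fold for Osm and level for Tgfb1 (1.00). WT blank 2 showed 10.5-fold for Il12b, 4.55-fold for Lif, 4.02-fold for Il1b and 1.57-fold for Tnf. Leaving out both blank 2 libraries raised Lif to log2 3.29 in WT and 3.32 in KO, and Il1b to 3.27 in WT, while Tnf stood at log2 -1.17 in WT and -0.96 in KO. The same libraries left out together with a batch term gave 4 called members in WT (Lif, Il6, Il1b and Tnf), beside 775 called genes in all, against 103 with all libraries and no such term. Osm was not among them (log2 2.86, adjusted p of 0.170), and Lif, at log2 2.98 in WT (adjusted p = 0.00129), then lay above it. Both settings were chosen after seeing the data.

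Per kilobase of exon, the order of the members changed between blank and R300 cells. In WT blank, Tnf (111 ± 30.6 CPM per kb, SD, n = 3) and Tgfb1 (106 ± 9.84) led and did not differ beyond their spread, followed by Il1b (42.6 ± 37.1), Il1rn (40.5 ± 7.76), Il1a (25.9 ± 8.76) and Osm (9.57 ± 3.71). Of these neighbours, Tgfb1 and Il1b, and Il1a and Osm, were apart by more than their SDs. In WT R300, Il1b led (205 ± 77.6), before Tgfb1 (133 ± 16.9), Osm (76.5 ± 35.3), Il1rn (70.7 ± 14.7), Il1a (45.2 ± 4.18) and Tnf (41.3 ± 7.46), where Tgfb1 lay above Osm, and Il1rn above Il1a, by more than their SDs and the other neighbours did not. KO R300 had the same first 3, Il1b at 335 ± 190, Tgfb1 at 143 ± 28.8 and Osm at 117 ± 72.2 CPM per kb. Il6, Lif, Il10 and Il12b were the lowest in all 4 groups. With the length of the longest transcript in place of all exons, Tgfb1 passed Tnf and Il1rn passed Il1b in blank cells of both genotypes. Il1rn also passed Il1a in KO blank, and it passed Osm in R300 cells.

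Most other genes of these pathways did not pass a test. The lists were drawn up with earlier results known. Among other gp130 ligands, Clcf1, a cytokine that signals through the ciliary neurotrophic factor receptor, rose in both genotypes. It stood at 16.8, 14.7 and 21.9 CPM in WT blank and 37.5, 32.9 and 40.7 in WT R300 (2.08-fold, log2 1.06, SE 0.15, adjusted p = 0.0115), with a KO change of 2.13-fold (log2 1.09, SE 0.15, adjusted p = 0.00730). In neither genotype did blank and R300 overlap, and the library without Xist lay close to the others. It was 1 of 4 tested ligands, out of 9 listed. Leaving out blank 1, R300 1 or R300 3 of WT ended the Clcf1 call there (adjusted p 0.0646 to 0.0820), and leaving out KO R300 2 ended the KO call (0.0545). Summing the near-alike R300 libraries ended it in both genotypes (0.113 in WT and 0.0830 in KO), and fitting only the groups compared ended it in WT (0.0949).

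None of 21 tested gp130 receptor and JAK-STAT genes passed in either genotype. The lowest p of that list was that of Cish, a STAT5-induced inhibitor of signalling, whose WT value was 4.60-fold (log2 2.20, SE 0.81, adjusted p = 0.422) and whose KO value was 5.11-fold (log2 2.35, SE 0.81, adjusted p = 0.329). Receptor subunits were looked at after their values were seen. Il6st, which encodes gp130 itself, stood at 125 to 193 CPM in the 12 libraries, Il6ra at 82.0 to 128 CPM and Lifr at 7.30 to 46.4 CPM. Osmr, the receptor subunit for oncostatin M that stromal cells are known to carry, stood at 3.08 to 30.4 CPM. Its highest values, 30.4 in WT R300 3 and 25.7 in KO R300 2, fell in the libraries with the highest summed mesothelial and fibroblast markers of all 12 (1454 CPM) and of the KO groups (845 CPM), and the part of those cells in the Osmr level was not tested. Socs3, a STAT3 target that shuts off gp130 signalling, had log2 values of 0.78 in WT (adjusted p = 0.753) and 0.54 in KO (adjusted p = 0.917).

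The TGF-β list held 2 called genes of 29 tested, higher in both genotypes. Lrrc32, which encodes the surface anchor GARP for latent TGF-β, went from 8.75 to 11.1 CPM in WT blank to 45.3 to 72.3 CPM in WT R300 (6.05-fold, log2 2.60, SE 0.39, adjusted p = 0.0149), and in KO it rose 8.36-fold (log2 3.06, SE 0.40, adjusted p = 0.00449). Thbs1, thrombospondin 1, an activator of latent TGF-β that platelets also carry, rose 10.9-fold in WT (log2 3.45, SE 0.56, adjusted p = 0.0227), beside a rise of 9.67-fold in KO (log2 3.27, SE 0.56, adjusted p = 0.0236). Both the anchor and the activator changed more than the ligand Tgfb1 at 1.25-fold, a contrast between genes that was not tested. In WT, leaving out blank 1, 2 or 3 or R300 1 or 3 ended both calls (Lrrc32 and Thbs1, adjusted p 0.0654 to 0.108). In KO, Lrrc32 kept its call whichever library was left out, while for Thbs1 leaving out KO R300 1 or 2, or blank 2 or 3 of that genotype, ended it (0.0879 to 0.105). Summing the near-alike R300 libraries ended the WT call of Lrrc32 (0.110) and both Thbs1 calls (0.162 in WT and 0.169 in KO). No filter on low counts, and leaving out both blank 2 libraries, ended the same 3 calls (0.0646 to 0.123). Fitting only the groups compared ended the KO calls of Lrrc32 (0.0783) and Thbs1 (0.1205).

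In the IL-10 and IL-12 list, 1 of 9 tested genes fell in WT and none passed in KO. This was Il20rb, a receptor subunit for IL-20 family cytokines, at 12.8, 16.98 and 12.0 CPM in WT blank and 6.91, 6.37 and 7.21 in WT R300 (0.489 of blank, log2 -1.03, SE 0.19, adjusted p = 0.0429). Its KO level was 0.587 of blank (log2 -0.77, SE 0.19, adjusted p = 0.125), and the difference of the 2 responses was 0.26 (SE 0.27, adjusted p = 1.00). The Il20rb call in WT was lost without any one of 10 libraries (adjusted p 0.0554 to 0.212) and held without KO blank 3 or KO R300 3. It was also lost with library totals only, only the groups compared, near-alike libraries summed or both blank 2 libraries left out (0.0598 to 0.314), and the KO value passed with DESeq2 (0.0188) and with the batch term (0.0106).

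In the other lists no gene passed. Of 24 TNF superfamily genes tested, 18 values were negative in WT (median log2 -0.15) and 20 in KO (median -0.33). The lowest p among them was that of Tnfrsf1b, the second TNF receptor, at 0.734 of blank in WT (adjusted p = 0.578) and 0.634 in KO (adjusted p = 0.256). Of 21 genes of the IL-1 system, 10 were positive in WT and 11 in KO (lowest p Gsdmd, the pore former through which IL-1β leaves the cell, at 0.878 and 0.871 of blank, adjusted p = 0.534 and 0.470). Of 12 regulators of cytokine mRNA decay, Zc3h12c, from the Regnase family of RNases, had the lowest p, at 0.451 of blank in WT (adjusted p = 0.301) and 0.356 in KO (adjusted p = 0.113). Of 14 growth factor and other cytokine genes, it was Hgf, hepatocyte growth factor, at 2.00-fold (adjusted p = 0.211) and 1.96-fold (adjusted p = 0.191).

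**Figure D3:**
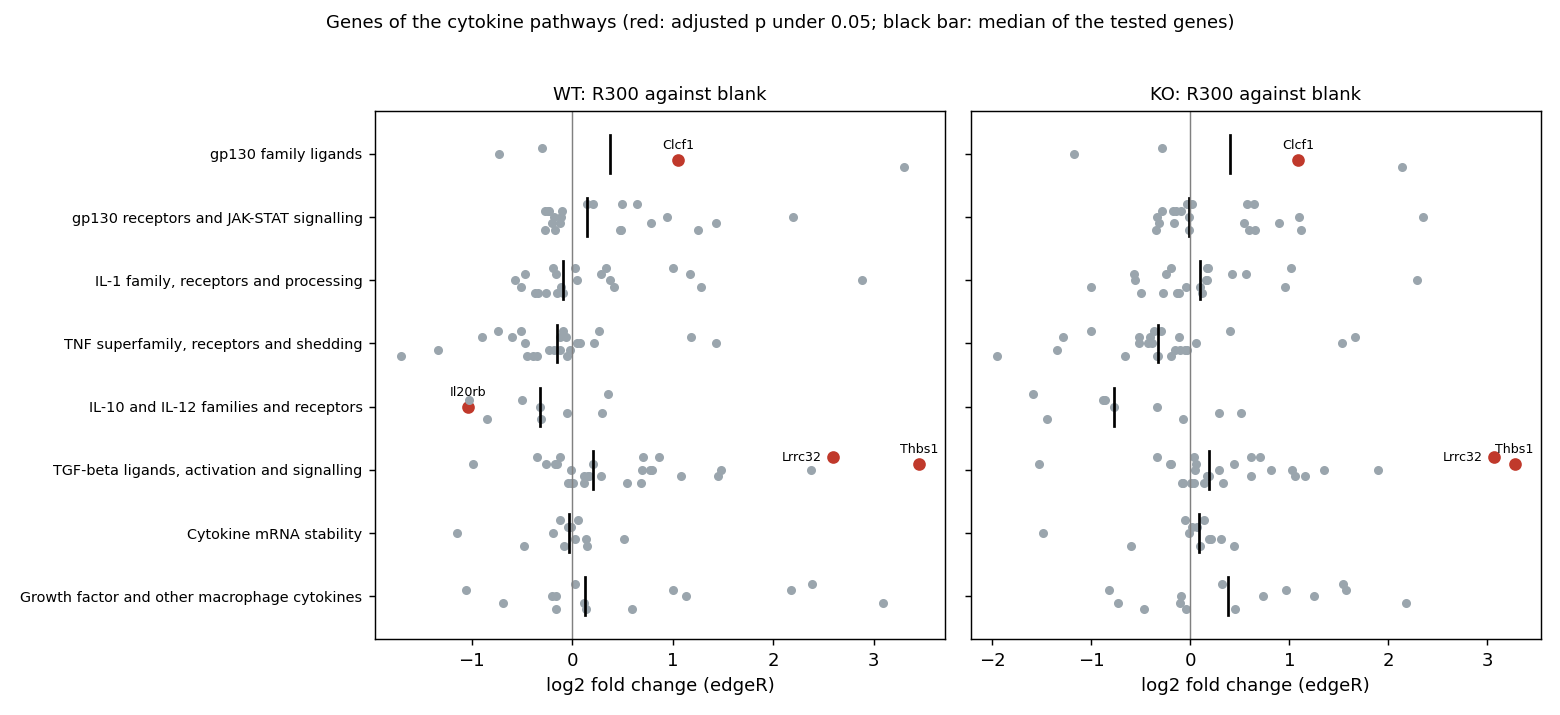
log2 fold change with R300 against blank for each tested gene of the 8 pathway lists, in WT (left) and KO (right). Each point is a gene, red and labelled where its adjusted p was under 0.05, and the black bar is the median of the list. Clcf1, Lrrc32 and Thbs1 are red in both panels and Il20rb in the WT panel, and the medians lie between -0.77 and 0.40.

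None of the nearest tested genes beside these members passed in either genotype. Castor1, a cytosolic arginine sensor of the mTORC1 pathway, lies before Osm on chromosome 11 at 4218225 to 4222409. It was 3.43-fold higher in WT R300 (log2 1.78, SE 0.34) and 3.23-fold in KO R300 (log2 1.69, SE 0.34), both just short of the threshold (adjusted p = 0.05002 and 0.0507; it passed in 8 of 23 alternatives in each genotype, DESeq2 among them). On the other side of the pair, Mtmr3 had log2 values of -0.21 (adjusted p = 0.542) and -0.05 (adjusted p = 0.975). Tnf is flanked by the genes of 2 lymphotoxins, Ltb (log2 -1.34 in WT, adjusted p = 0.641, and -1.35 in KO, adjusted p = 0.645) and Lta (-1.70, adjusted p = 0.352, and -1.95, adjusted p = 0.256), and neither passed. Next to Il10, the B cell gene Fcmr (log2 -0.70 and -0.76) and the kinase gene Mapkapk2 (log2 -0.48 and -0.60) did not pass, with adjusted p from 0.378 to 0.779. Psd4, after Il1rn, had log2 values of 0.48 (adjusted p = 0.350) and 0.39 (adjusted p = 0.503).

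The genes whose log2 CPM followed that of Osm most closely over the 12 libraries were Gfpt1 (Pearson r 0.98), Ddit4 (0.98), Arpc3 (0.97), Nudt4 (0.97), Smox (0.97) and Egr3 (0.97), out of 11494 candidates. Gfpt1 encodes the entry enzyme of the hexosamine pathway, Ddit4 an inhibitor of mTORC1, Arpc3 an actin-branching subunit, Smox spermine oxidase and Egr3 an immediate early transcription factor. Among the members, the order of likeness to Osm was Il1b (0.91), Tgfb1 (0.89), Lif (0.83), Il1rn (0.83), Il6 (0.75), Il1a (0.58), Il10 (0.45) and Tnf (-0.71). These values describe 12 libraries that share groups and differ in presence of Xist. Any gene that differs between R300 and blank, or with Xist, gains from that.

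Markers of other cells moved beside these results. Summed neutrophil markers ran from 181 to 304 CPM in WT blank, 175 to 201 in WT R300, 211 to 300 in KO blank and 169 to 224 in KO R300, with none of 10 tested called in either genotype and the defining Ly6g at 0 in 3 libraries and at most 0.208 CPM. Mast cell and eosinophil markers summed to 19.9 to 56.5 CPM in WT blank, 62.0 to 81.1 in WT R300, 34.0 to 87.9 in KO blank and 61.9 to 137 in KO R300. All 9 tested were positive in both genotypes and 1, Gata2, was called in both (2.10 and 2.02 on the log2 scale), while Prg2, a granule gene of eosinophils, was at 0 in 7 libraries, Epx in 4 and Ms4a2, a mast cell receptor chain, in 2. B cell markers ran the other way, negative for all 9 in both genotypes with none called, at 89.5 to 313 CPM in WT blank, 87.8 to 107 in WT R300, 149 to 287 in KO blank and 115 to 135 in KO R300. Their highest sum in each genotype was in blank 2, the library with the highest Tnf, and no B cell marker was at 0 in any library.

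Recruited monocyte markers summed to 369 to 780 CPM in WT blank, 329 to 359 in WT R300, 421 to 634 in KO blank and 385 to 440 in KO R300, with all 8 negative in WT, 7 in KO and none called or at 0. Mesothelial and fibroblast markers summed to 157 to 688 CPM in WT blank, 205 to 1454 in WT R300, 373 to 477 in KO blank and 376 to 845 in KO R300, with 10 of 11 positive in both genotypes, none called, and Lum at 0 in 1 library. Dendritic cell markers summed to 19.8 to 34.7, 46.2 to 62.7, 23.9 to 37.2 and 42.9 to 60.0 CPM in the same order of groups. Of the 8 dendritic markers, 5 were positive and 3 negative in WT, and 4 were positive and 4 negative in KO, so the list did not move as a whole. Ccr7, at 9.91 to 47.3 CPM, was called in both genotypes (3.26-fold and 2.83-fold, lost under 10 and 15 of 23 alternatives), and no dendritic marker was at 0. Platelet markers summed to 52.8 to 89.0, 52.8 to 104, 64.0 to 106 and 69.0 to 126 CPM, with 4 positive, 3 negative and none of 7 tested called in each genotype. In every group the lowest platelet sum was that of the library without Xist. Pf4 alone stood at 40.2 to 114 CPM, so these sums follow mainly that gene. Gp6 was at 0 in 5 libraries, Gp5 in 3 and Gp9 in 1. T and NK cell markers summed to 2.80 to 10.5 CPM over all groups, with none of 9 tested called, Ncr1 at 0 in 3 libraries and Cd8a and Klrb1c in 1 each. Of 7 handling and mitochondrial genes, the heat shock gene Hsph1 was called in both genotypes (log2 0.70 and 0.71, lost under 9 and 6 alternatives). The sum of the 7 genes was highest in the library without Xist in WT R300 (13548.3 CPM), KO blank (15041.5) and KO R300 (14388.7). In WT blank it was not (13308.5 CPM against 18450.1 in blank 2). The part of these cells and of handling in the cytokine differences was not tested. For the mast cell and eosinophil sum in KO, blank 2 (87.9 CPM) lay among the R300 libraries, as it did for Il1rn.

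**Figure D4:**
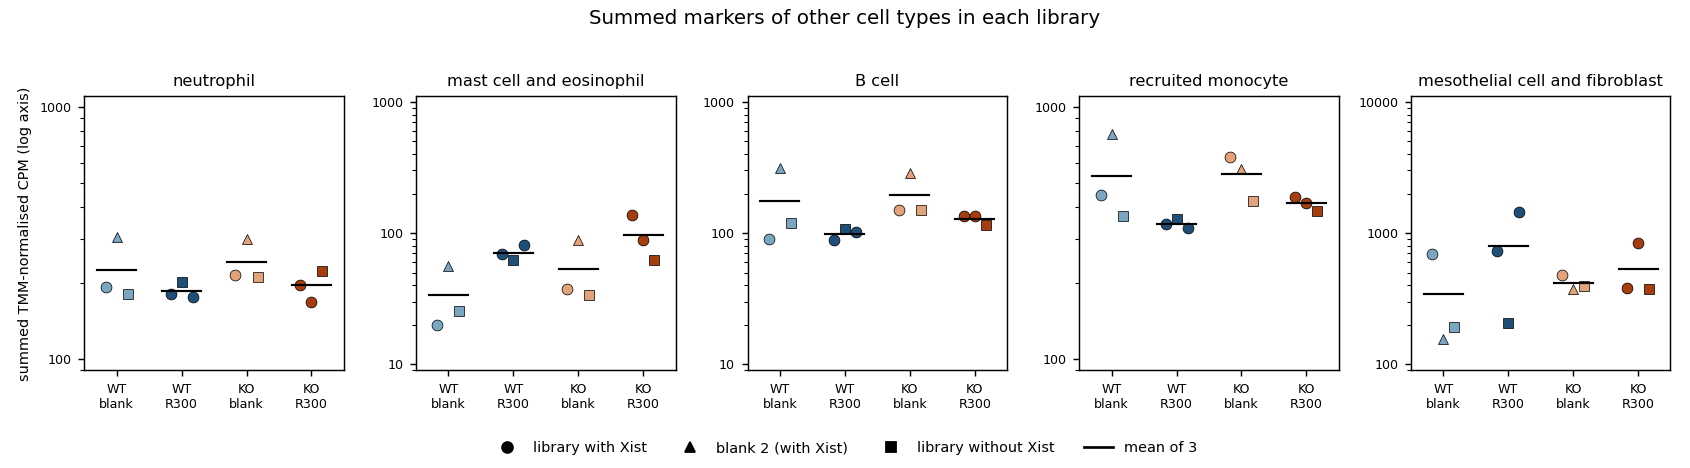
Summed TMM-normalised CPM (log axis) of markers of 5 other cell types in each library, with the 4 groups along the x axis. Circles are libraries with Xist, triangles the blank 2 libraries, squares the libraries without Xist and bars the mean of 3. The blank 2 libraries hold the highest B cell and neutrophil sums of their genotype (313 and 304 CPM in WT), and the mesothelial and fibroblast sum spreads from 157 to 1454 CPM.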

How the data were processed

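The authors deposited raw counts, 1 value per gene and library, for 12 libraries of mouse peritoneal macrophages, made from poly(A) RNA, per the labels' protocols, with oligo(dT) beads and a NEBNext Ultra kit. The submitters' processing notes name DESeq2 1.42.0, featureCounts 2.0.3, HISAT2 (listed as version 2), fastp 0.23.4, FastQC 0.12.1 and mm10; settings, the use of strand included, are not given in the sources used here. The 12 sample files were identical to the columns of the whole table. Rows without a symbol (102 of 35050, 0.0232% to 0.0328% of counts) were left out, and 18 symbols had several rows, none of them a cytokine described here.

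Counts were tested with edgeR 4.0.16 in R 4.3.3 (TMM, filterByExpr, robust quasi-likelihood fit, 1 mean per group over all 12 libraries, 16546 genes), with Benjamini-Hochberg adjustment and a threshold of 0.05. The script was tested on simulated data. Levels are TMM-normalised CPM, folds are from the fit, and the SE is that of the fit. Likeness to Osm is Pearson's r of log2(CPM + 0.5). Positions are from the GENCODE annotation of GRCm38, and promoters from RefSeq.

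The cytokines, the gene lists, the tests and the alternatives were chosen with earlier results of these data known. Besides the 10 cytokines, named genes are up to 3 called genes per pathway list (or the one with the lowest p), the nearest tested neighbours of Osm and Lif, of Il1a and Il1b, of Il1rn, of Tnf and of Il10, and the 6 genes most like Osm. Receptor genes, Socs3 and single markers were named after their values were seen, and Nr1d1, which the rule also names, is left out because no cytokine result turns on it. Some listed symbols, such as Il1f9, Il1f6, Il20 and Gp1bb, had no match and were not analysed here. Alternatives were DESeq2 1.42.0, a fit with only the groups compared, other scalings, a replicate block, no filter on low counts, a batch term separating the 4 libraries that lack Xist, libraries with Xist only, near-alike R300 libraries summed, and each library left out in turn. Leaving out both blank 2 libraries, doing so with the batch term, and a blank-only fit with the replicate block were added after seeing the data. Same-numbered KO and WT blank libraries deviated together (r 0.587, 0.608 and 0.654 over genes), a link seen in the data and not stated in the labels. Blank libraries of the same number also shared presence or lack of Xist, and libraries of unlike number were not compared.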

Additional observations from a re-analysis of the deposited data

How the results depend on the processing

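Over all alternatives, 1149 values of the 10 cytokines were computed. Of these, 1107 stayed called or not called, uncalled values with a changed sign included, 27 newly passed, 15 lost the threshold and 0 called values reversed. The 15 losses were all those of Osm in KO. Signs did change for values not called by edgeR with all 12 libraries and no added term, among R300 contrasts for Il12b in both genotypes and for Il1a and Il10 in KO. They also changed for several cytokines between genotypes and in the interaction. The most changes were those of Il1b in the interaction, under 11 of 22 alternatives. In KO, as a description, Il1a and Il10 had log2 values of 1.28 and 2.06 without both blank 2 and with the batch term. Under other settings their KO values went down to -0.463 and -0.313.

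In WT with R300, where 103 genes were called, the number was 332 with DESeq2, 41 with only the groups compared, 347 with the batch term, 242 with libraries with Xist only, 27 with near-alike libraries summed and 775 without both blank 2 and with the batch term. Called cytokines went from 0 to 1 with DESeq2, 3 with the batch term, 2 with Xist only, 1 without both blank 2 and 4 without both and with the batch term. Osm passed with DESeq2 (log2 2.99), the batch term (2.82) and Xist only (3.46). In KO, where 138 genes were called, the number was 416 with DESeq2, 43 with only the groups compared, 450 with the batch term, 290 with Xist only, 35 with near-alike libraries summed and 1051 without both blank 2 and with the batch term. The counts of called cytokines in KO are a description, since that contrast chose the set: they went from 1 to 2 with DESeq2 (Tnf besides Osm), 4 with the batch term, 2 with Xist only and 7 without both blank 2 and with the batch term, and to 0 with no filter, only the groups compared, the replicate block or near-alike libraries summed.

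The Osm call in KO was lost with no filter (log2 3.36), only the groups compared (3.37), the replicate block (3.36), near-alike libraries summed (3.09), without both blank 2 (3.74) and without both and with the batch term (3.38), and without any 1 library except WT blank 1, WT R300 2 and KO R300 3. Its log2 value stayed between 3.02 and 3.80 over all 23 alternatives. The cause of these losses was not tested. Leaving out 1 library gave 32 to 135 called genes in WT and 45 to 171 in KO, 0 to 1 called cytokines in each, and Osm values of 2.70 to 3.33 in WT and 3.02 to 3.80 in KO. Counts fell by more than 1.5 times in WT when any WT library but R300 2, or KO R300 1 or 2, was left out, and in KO when WT R300 1 or 3, KO blank 1 or 3, or KO R300 1 or 2 was. With the replicate block, 119 genes were called in WT and 141 in KO. Same-numbered R300 and blank libraries gave r of -0.531 to 0.424 in WT and 0.0126 to 0.671 in KO. The lowest WT value joined blank 3, without Xist, to R300 3, with Xist. The highest KO value joined KO blank 3 to KO R300 3, both without Xist. Replicate number and Xist were not separated in these values. Among the blanks, the block changed no call.

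Between genotypes, called genes in blank cells numbered 2 with DESeq2, 1 with no filter, 1 with the batch term and 74 without both blank 2 and with the batch term, and in R300 cells 12 with DESeq2, 1 with no filter, 1 without both blank 2 and 185 without both and with the batch term. None was one of the 10 cytokines. The lowest counts behind a value were 1 read for Il12b and 10 for Il10; the shares of counting error and library spread in the standard errors were not separated.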
